A study of Mus musculus with 6 samples.

Results

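The mevalonate branch of cholesterol synthesis was followed in helper T cells with and without the arginine methyltransferase gene Prmt5. Its 7 members, Acat2, Hmgcs1, Mvk, Pmvk, Mvd, Idi1 and Fdps, were chosen by pathway membership as the rows whose symbol equals a member, out of 54532 gene rows, and each symbol had 1 row. The cells were CD4 T cells from spleen and lymph nodes of C57BL/6 mice, activated for 48 h on coated antibodies against CD3 and CD28 with no cytokine added, and their total RNA was sequenced after removal of ribosomal RNA. The controls, with the genotype label iCD4-PRMT5fl/fl, carry floxed Prmt5 alleles (n = 3, replicates 1, 2 and 4). The knockouts, with the genotype label iCD4-PRMT5delta/delta, carry deleted Prmt5 alleles (n = 3, replicates 1, 4 and 5). The sources used here do not state the age of the mice, the driver of the deletion, whether a library came from 1 mouse or a pool, or what the ending R2 in the title of knockout 4 means. The replicates are biological, per the series' design text.

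The mevalonate pathway builds isoprene units from acetyl-CoA. Acetyl units are joined by a thiolase and a synthase, mevalonate is phosphorylated in turn by a pair of kinases and decarboxylated, and the resulting isopentenyl diphosphate is isomerised and condensed into farnesyl diphosphate. Farnesyl diphosphate is the branch point from which cells make sterols and also the prenyl groups, dolichol and ubiquinone side chains. Transcription of these enzymes is driven by SREBP-2, a membrane-bound factor released when sterol in the endoplasmic reticulum is low, and T cells raise the pathway when they are activated and grow.

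Prmt5 itself separated the genotypes. It stood at 134, 133 and 98.2 CPM (the read count of a gene scaled to a common library size with TMM factors) in controls 1, 2 and 4 and at 41.1, 34.2 and 36.7 CPM in knockouts 1, 4 and 5, with no overlap. With the library tag described next in the model, edgeR gave Prmt5 a log2 fold change of -1.58 (SE 0.09) at an adjusted p of 0.00312, and on genotype alone it did not pass, at -1.70 (SE 0.17) and an adjusted p of 0.109. The raw column names carry a library tag, here called A and B, which the sources used here do not explain. Control 1, control 2 and knockout 1 have tag A, and control 4, knockout 4 and knockout 5 have tag B. Total gene counts lay between 29623513 and 39832588. The libraries parted by this tag and by genotype in a principal component analysis of the 2000 genes of highest variance. Tags A and B lay on opposite sides of its first axis, with 42.2% of the variance. Its second axis, with 37.3%, had every control (9.25 to 35.3) above every knockout (-36.1 to 6.59). The members' genotype comparison is therefore given on genotype alone, with the tag as a second term, and within each tag. All 8 genes of a CD4 T cell marker list were detected, and their sum was between 1631 and 1800 CPM for controls and between 1499 and 2084 CPM for knockouts.

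The promoter windows of 6 of the 7 members are held in RefSeq for GRCm38.p6 as 300 bases, from 250 before to 50 after the annotated start. No window was found for Fdps, and Pmvk has a pair of annotated starts. The windows are shown because the members moved together across the libraries, and some of them hold boxes known from sterol-responsive promoters. A set of 4 motifs were searched on both strands: CACNCCAC, the core of the sterol response element (SRE) bound by SREBP; TCACNCCAC, the same core with a leading T, which overlaps it by construction; CCAAT, the box bound by NF-Y; and GGGCGG, the GC box bound by Sp1. Capitals mark every match, so that ATTGG in capitals is a CCAAT box on the other strand and CCGCCC a GC box on the other strand. Each sequence runs 5′ to 3′ on the strand of its gene.
Acat2 (chr17:12960676-12960975, minus strand): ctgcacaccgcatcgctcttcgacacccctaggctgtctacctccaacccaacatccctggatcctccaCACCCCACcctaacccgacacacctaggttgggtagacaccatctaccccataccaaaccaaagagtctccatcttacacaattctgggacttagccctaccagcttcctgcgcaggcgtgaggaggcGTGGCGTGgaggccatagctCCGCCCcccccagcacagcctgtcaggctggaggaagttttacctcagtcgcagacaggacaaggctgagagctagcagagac
Hmgcs1 (chr13:119690101-119690400, plus strand): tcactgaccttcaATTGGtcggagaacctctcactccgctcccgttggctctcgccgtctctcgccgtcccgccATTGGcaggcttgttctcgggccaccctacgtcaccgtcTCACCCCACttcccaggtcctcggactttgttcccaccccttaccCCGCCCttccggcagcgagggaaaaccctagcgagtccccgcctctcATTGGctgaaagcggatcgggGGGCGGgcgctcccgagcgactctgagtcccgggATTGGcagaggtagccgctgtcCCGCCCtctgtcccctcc
Mvk (chr5:114444019-114444318, plus strand): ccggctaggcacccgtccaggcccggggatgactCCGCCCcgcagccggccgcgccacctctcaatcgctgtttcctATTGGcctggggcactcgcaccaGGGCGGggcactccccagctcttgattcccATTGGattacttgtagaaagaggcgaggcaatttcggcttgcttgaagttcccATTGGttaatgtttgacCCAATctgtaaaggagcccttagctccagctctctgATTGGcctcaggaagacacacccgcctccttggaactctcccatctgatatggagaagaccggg
Mvd (chr8:122443373-122443672, minus strand): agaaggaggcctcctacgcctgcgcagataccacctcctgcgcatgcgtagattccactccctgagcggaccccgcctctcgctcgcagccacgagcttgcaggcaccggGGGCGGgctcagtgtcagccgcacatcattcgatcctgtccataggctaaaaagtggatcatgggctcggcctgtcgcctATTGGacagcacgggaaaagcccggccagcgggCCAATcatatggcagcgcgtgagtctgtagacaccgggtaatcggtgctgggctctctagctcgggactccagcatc
Idi1 (chr13:8885356-8885655, plus strand): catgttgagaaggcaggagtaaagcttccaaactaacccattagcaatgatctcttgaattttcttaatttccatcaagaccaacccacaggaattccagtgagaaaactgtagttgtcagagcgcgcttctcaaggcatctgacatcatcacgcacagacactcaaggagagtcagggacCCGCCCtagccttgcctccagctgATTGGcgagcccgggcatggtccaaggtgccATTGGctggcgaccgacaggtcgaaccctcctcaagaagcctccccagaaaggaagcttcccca

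Hmgcs1 held 1 SRE core with a leading T, from -137 to -129 relative to the start, together with 4 CCAAT boxes and 3 GC boxes. Acat2 held 2 SRE cores, from -181 to -174 and, on the other strand, from -53 to -46, with 1 GC box and 0 CCAAT boxes. Mvk held 5 CCAAT boxes, and Mvd and Idi1 held 2 each. No SRE core was found in the windows of Mvk, Pmvk, Mvd or Idi1. Of all 32851 windows of this length, 6.24% held the SRE core, 1.24% the core with a leading T, 37.4% a CCAAT box and 35.7% a GC box. At least 3 CCAAT boxes, as in Hmgcs1 and Mvk, were found in 3.37% of all windows. The upstream start of Pmvk, at position 89454541 of chromosome 3, had 1 CCAAT box in its window, and the window of the other start, at 89459571, had no match to any of the motifs. These are matches of letters in these windows and were not tested for binding.

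**Figure D1:**
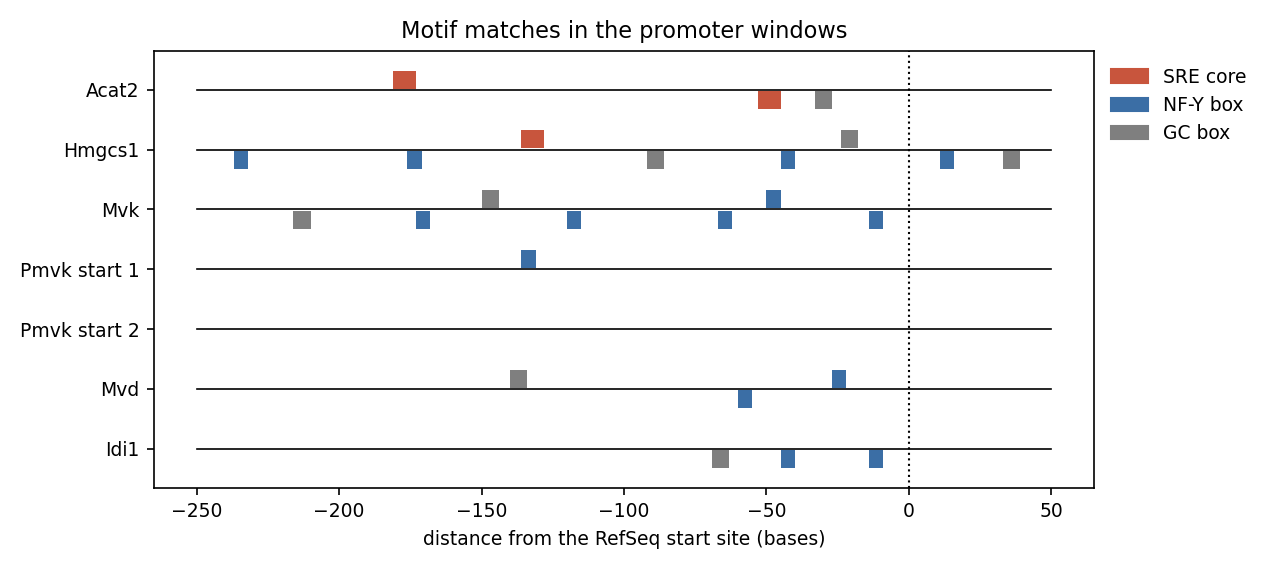
Motif matches in the 7 promoter windows of 6 members, drawn to scale as distance in bases from the RefSeq start site (dotted line); bars above a line lie on the gene's strand and bars below it on the other strand. SRE cores appear in Acat2 and Hmgcs1, and Mvk has 5 NF-Y (CCAAT) boxes.

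Every knockout library lay below every control library for all 7 members. Over all 15685 genes tested, 1362 (8.68%) were ordered in that way. Acat2, the cytosolic thiolase that joins a pair of acetyl-CoA molecules, stood at 88.9, 92.0 and 64.2 CPM in control libraries 1, 2 and 4 and at 45.4, 40.3 and 37.3 CPM in knockouts 1, 4 and 5. Its lowest control was control 4, which was still 18.8 CPM above the highest knockout. Hmgcs1, the synthase that adds the third acetyl group, was at 517, 476 and 249 CPM in the controls and at 244, 165 and 151 CPM in the knockouts. The genotypes of Hmgcs1 lie close together at one point, since control 4, of tag B, was only 4.61 CPM above knockout 1, of tag A.

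Mvk, mevalonate kinase, stood at 21.5, 24.96 and 20.2 CPM in control libraries 1, 2 and 4 and at 13.6, 13.5 and 14.8 CPM in knockouts 1, 4 and 5. Pmvk, which adds the next phosphate, stood at 65.7, 64.2 and 57.5 CPM in the controls and at 33.2, 32.3 and 27.9 CPM in the knockouts. Mvd, the decarboxylase that yields isopentenyl diphosphate, stood at 43.7, 49.0 and 41.7 CPM in the controls and at 24.3, 23.3 and 24.8 CPM in the knockouts. In these 3 transcripts the groups were compact, with a coefficient of variation of at most 11.1% among controls and 9.08% among knockouts, and control 4 was the lowest control of each.

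Idi1, the isomerase that makes dimethylallyl diphosphate, stood at 109, 107 and 67.1 CPM in control libraries 1, 2 and 4 and at 63.7, 48.0 and 44.3 CPM in knockouts 1, 4 and 5. Like Hmgcs1 it was higher in the tag A library or libraries of each genotype, and only 3.32 CPM parted control 4 from knockout 1. Fdps, farnesyl diphosphate synthase, stood at 22.5, 22.5 and 15.7 CPM in the controls and at 11.5, 10.5 and 7.23 CPM in the knockouts. Knockout 5 had the fewest Fdps reads of any library, 227, for which counting alone gives an error of 6.64%; all other members had more reads in every library.

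**Figure D2:**
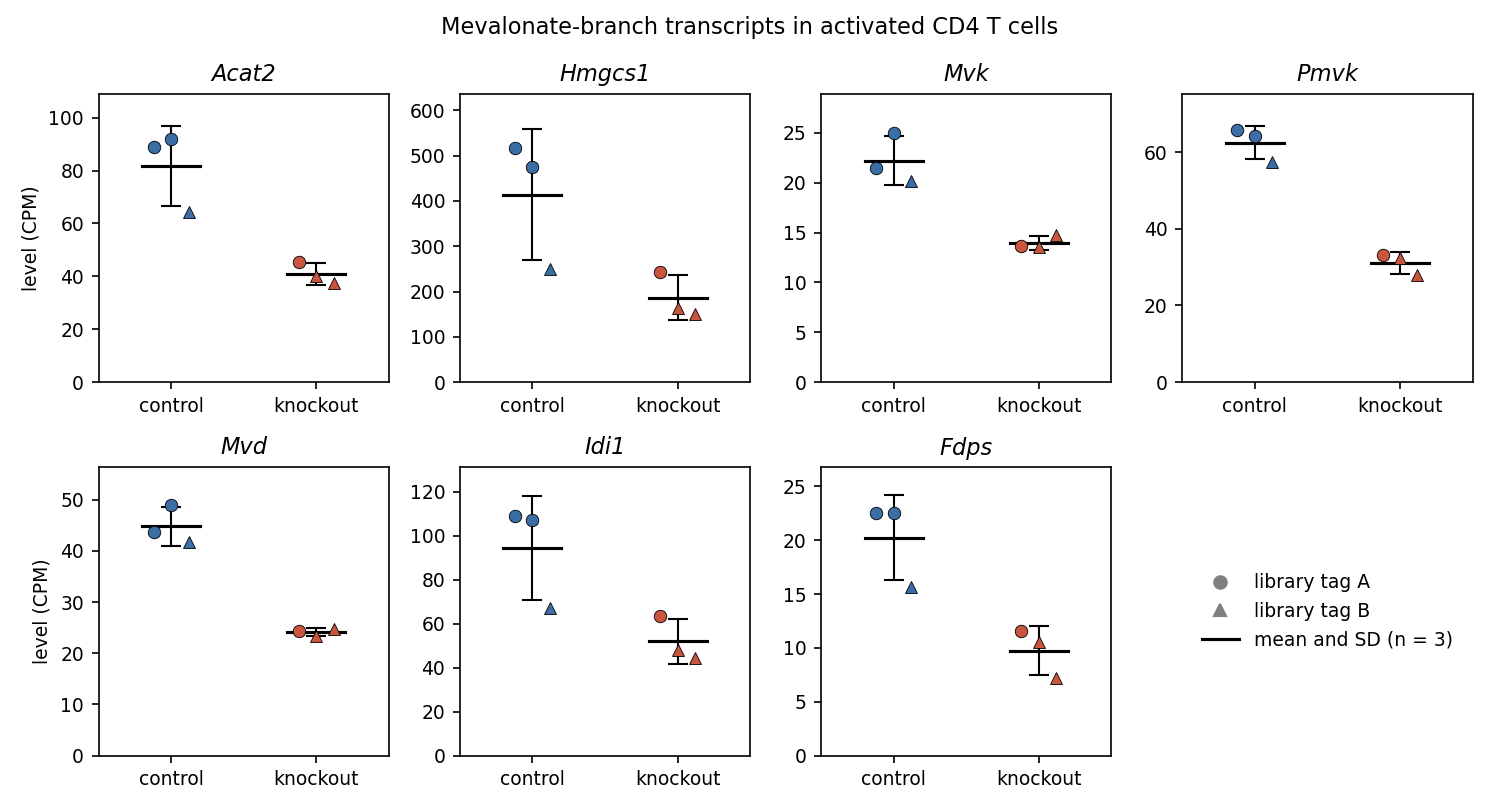
Level of each member in CPM (vertical axis, from 0) in the 3 control and 3 knockout libraries; circles are tag A and triangles tag B, and bars give the mean and SD (n = 3). All knockouts lie under all controls in every panel, with the narrowest gaps in Idi1, Fdps and Hmgcs1, of 3.32, 4.12 and 4.61 CPM.

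The group means give the size of the difference. The mean of Hmgcs1 was 414 ± 145 CPM over the controls against 187 ± 50.2 CPM over the knockouts (SD, n = 3 each), a ratio of 2.22. The ratio of control to knockout means was 2.07 for Fdps, 2.01 for Pmvk and 1.99 for Acat2. It was 1.86 for Mvd, 1.81 for Idi1 and 1.59 for Mvk, the smallest of the 7. These are differences in RNA from whole cultures, in which fewer cells of a type and less RNA per cell cannot be told apart.

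With the tag as a second term, all 7 members fell in knockouts by the edgeR quasi-likelihood test, at adjusted p-values under 0.05 over 15685 genes. The same call was made for 570 genes (3.63%) of all tested. Pmvk fell most, by 0.95 on the log2 scale (SE 0.10, adjusted p = 0.0123). Fdps fell by 0.89 (SE 0.17), Mvd by 0.86 (SE 0.11), Acat2 by 0.86 (SE 0.10) and Hmgcs1 by 0.84 (SE 0.12). Idi1 fell by 0.65 (SE 0.10) and Mvk by 0.64 (SE 0.14), the latter with the largest adjusted p of the 7, 0.0425. The median over the members was -0.86, against 0.02 over all genes tested. With ERCC scaling only Pmvk passed (edgeR adjusted p = 0.0346), at a median of -1.32 over the members and -0.44 over all genes, and with raw gene totals Mvk did not pass (adjusted p = 0.0539). Differences in size between members were not tested.

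On genotype alone, edgeR called 0 of 15685 genes (0%), with 1780 at an unadjusted p under 0.05, and DESeq2 called 442. No member passed in edgeR, although all 7 had an unadjusted p under 0.05, against 751 genes (4.79%) that were lower in knockouts at that level. The log2 fold changes lay between -1.15 for Hmgcs1 (SE 0.31, adjusted p = 0.283) and -0.67 for Mvk (SE 0.16, adjusted p = 0.256). The smallest adjusted p of a member was 0.176, for Pmvk, whose unadjusted p ranked 10 among all genes. DESeq2 in the same design called all 7 members, with adjusted p-values between 2.51e-07 for Pmvk and 0.0495 for Idi1.

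The calls with the tag term were lost without some single libraries. Without control 2, without control 4 or without knockout 1, edgeR called 0 members, and without control 1 it called 4. The members' median log2 fold change in these fits was -0.85, -0.97, -0.75 and -0.86. Of all genes, those fits called 3, 0, 0 and 149. Without knockout 4 or without knockout 5, all 7 members were called. The same call, lower in knockouts, was then made for 994 of 16180 genes and for 556 of 16181 genes. In no fit that left out a library did a member turn sign.

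Within tag A the difference between knockout 1 and the mean of controls 1 and 2 was negative for all 7 members, from -1.02 for Hmgcs1 to -0.74 for Mvk on the log2 scale. Within tag B, knockouts 4 and 5 were below control 4 for all 7 members, from -0.93 for Pmvk to -0.50 for Mvk. The interaction of genotype and tag was positive for all 7, from 0.03 for Pmvk to 0.37 for Hmgcs1, which means a smaller difference in tag B. None passed (edgeR, smallest adjusted p of a member 0.777), and neither did any of the 15685 genes (0%), with 996 at an unadjusted p under 0.05; DESeq2 called 37 genes and 0 members.

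**Figure D3:**
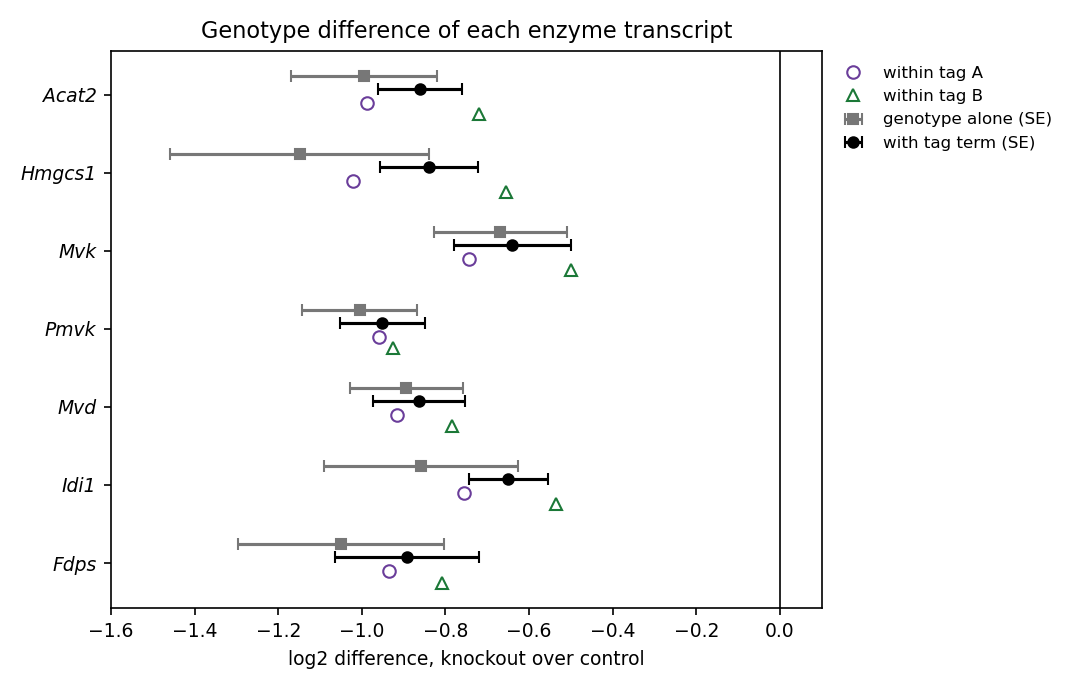
Log2 difference of knockout over control (horizontal axis) for each member: on genotype alone and with the tag term, with bars of 1 SE, and the plain differences within tag A and tag B. All points lie left of 0, from -1.15 to -0.50, and the within-tag points differ least for Pmvk.

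Members parted by how far they followed the library tag. Hmgcs1 was lower in tag B than in tag A by 0.81 on the log2 scale with genotype in the model (SE 0.12, edgeR adjusted p = 0.00333). Idi1 was lower by 0.58 (adjusted p = 0.00495) and Acat2 by 0.36 (adjusted p = 0.0299). The same call was made for 2584 genes (16.5%). Fdps had -0.45 and did not pass (adjusted p = 0.0793). Pmvk, Mvd and Mvk had -0.16, -0.08 and -0.08, with adjusted p-values from 0.258 to 0.704, so that the kinases and the decarboxylase showed no detectable difference between the tags. Srebf2, which encodes SREBP-2, had -1.42 between the tags and 0.02 between the genotypes in the same fit (adjusted p = 0.00163 and 0.914). Its level in controls 1, 2 and 4 was 295, 227 and 97.6 CPM, and in knockouts 1, 4 and 5 it was 265, 104 and 94.9 CPM. The genotypes overlap for Srebf2, and its difference of knockout over control was 0.03 on the log2 scale within either tag.

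Across the 6 libraries the members rose and fell together, as a description over points that share genotype and tag. The Pearson correlation of log2 CPM was 0.998 for Hmgcs1 with Idi1 and 0.991 for Mvk with Mvd. The lowest of the 21 pairs was Hmgcs1 with Mvk, at 0.843. Genes outside the branch most like the members' mean were sought among 9168 protein-coding genes with established symbols and a mean of at least 5 CPM. They were Nsdhl (r = 0.996), Mettl2 (0.995), Pde4dip (0.994), Strbp (0.993), Elovl6 (0.992) and Insig1 (0.992), over 6 libraries. Nsdhl is a sterol dehydrogenase of cholesterol synthesis, Elovl6 a fatty acid elongase and Insig1 the retention protein of the SREBP system. Mettl2, Pde4dip, Strbp and Elovl6 are in none of the gene lists used here.

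Levels of different genes were compared per kilobase of the deposited gene length. In controls Hmgcs1 was at 120 ± 41.7 CPM per kb, Pmvk at 52.3 ± 3.66, Acat2 at 36.3 ± 6.76 and Idi1 at 31.2 ± 7.80 (SD, n = 3). Mvd was at 24.4 ± 2.06, Mvk at 9.34 ± 1.04 and Fdps at 6.85 ± 1.34 CPM per kb. Hmgcs1 was above Pmvk, and Pmvk above Acat2, in 6 of 6 libraries. Acat2 was above Idi1 in 5 of 6 libraries, all 3 controls among them, and their ranges overlapped in both genotypes. Idi1 was above Mvd in 5 of 6 libraries, and their ranges overlapped among controls but not among knockouts. Mvd was above Mvk, and Mvk above Fdps, in 6 of 6 libraries.

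The low level of Fdps cannot be read as such. Fdps (GRCm38 chromosome 3, minus strand, from 89093588 to 89101959) overlaps Gm43738, an annotated gene on the same strand. Exons of Gm43738 cover 1124 of the 1382 bases of the longest principal Fdps transcript (81.3%), in 9 of its 11 exons, which leaves 258 bases that are not shared. Gm43738 itself had 0 to 2 counts in each library. The sources used here do not say how reads on both genes were counted, so the level of Fdps relative to other genes is uncertain, while its ratio between libraries uses the same bases throughout. An intron of Fdps also holds the small nuclear RNA gene Gm22935, with 30 to 44 counts in controls and 10 to 11 in knockouts.

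No other member shares its strand with an overlapping gene. The kit keeps strand, but whether the counting used it is not stated, so reads of a gene and its antisense partner may not be told apart. Hmgcs1 (chromosome 13, plus strand, from 119690379 to 119708260) faces the antisense gene Gm48342, which had at most 6 counts per library. Idi1 (chromosome 13, plus strand, from 8885501 to 8892451) faces Gm48574, with 8 to 27 counts per library, against at least 1391 for Idi1. Mvd (chromosome 8, minus strand, from 122433601 to 122443422) shares 0 exonic bases with the long gene Gm20388 on the other strand. Acat2 (chromosome 17, minus strand, from 12942890 to 12960747), Mvk (chromosome 5, plus strand, from 114444269 to 114460591) and Pmvk (chromosome 3, plus strand, from 89454541 to 89469013) overlap no other annotated gene. Mvk starts 208 bases from Mmab, an enzyme gene of cobalamin metabolism that runs the other way, so that the printed Mvk window also holds the start of Mmab. Mmab stood at 23.5, 22.9 and 30.9 CPM in control libraries 1, 2 and 4 and at 10.7, 9.32 and 10.9 CPM in knockouts 1, 4 and 5, and fell by 1.37 on the log2 scale with the tag term (SE 0.15, edgeR adjusted p = 0.0144). On genotype alone Mmab did not pass, at a log2 fold change of -1.32 (edgeR adjusted p = 0.176).

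The response to activation was read from the comparisons that the authors deposited, which give a log2 fold change and an adjusted p but no value per library. Activation raised all 7 members in controls. The authors' deposited table gave log2 fold changes of activated over unstimulated controls of 2.97 for Idi1, 2.83 for Hmgcs1 and 2.79 for Pmvk. The values in the authors' deposited table were 2.26 for Acat2, 2.21 for Fdps, 1.97 for Mvd and 1.28 for Mvk. The isomerase, the synthase and the second kinase of the chain thus had the largest log2 values of the 7, and mevalonate kinase the smallest. All 7 passed in the authors' deposited table, with adjusted p-values from 2.45e-74 for Pmvk to 9.26e-15 for Mvk, a call made for 5510 of 19882 genes that rose (27.7%).

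The log2 values were smaller in knockouts for each of the 7. Over all genes with a value in the authors' deposited table, the median absolute log2 fold change on activation was 1.065 in controls and 0.868 in knockouts. The authors' deposited table gave log2 fold changes of activated over unstimulated knockouts of 1.93 for Idi1, 1.82 for Pmvk and 1.57 for Hmgcs1. It was 1.10 for Acat2, 0.90 for Fdps and 0.77 for Mvd in the authors' deposited table. Of the 7 members 6 passed there as higher after activation of knockouts, as 5122 genes did in the authors' deposited table (25.8%). Mvk did not, at 0.32 and an adjusted p of 0.0631 in the authors' deposited table. The difference between the responses of the genotypes was not tested, and each response shares its activated libraries with the genotype comparison.

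Between genotypes in the activated state, all 7 members were lower in knockouts in the authors' deposited table, with adjusted p-values from 1.89e-10 for Pmvk to 0.0248 for Idi1, as were 461 of 15636 genes (2.95%). Between unstimulated knockouts and controls none of the 7 passed in the authors' deposited table, with an adjusted p of 0.9999 each. Across all genes of that comparison a count of 3 among 19882 passed in either direction (0.0151%), and Prmt5 was lower at a log2 fold change of -0.74 (adjusted p = 0.00081 in the authors' deposited table). The median absolute log2 fold change over all genes there was 1.41e-06, so the values of this comparison in the authors' deposited table do not give the size of a difference.

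**Figure D4:**
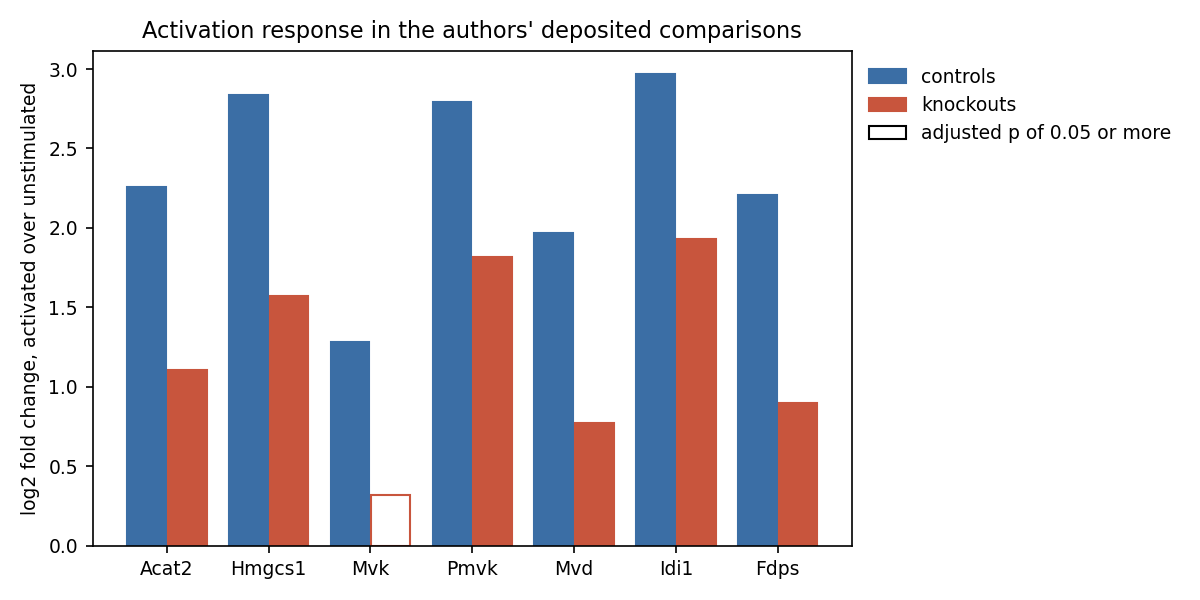
Log2 fold change of activated over unstimulated cells (vertical axis, from 0) in the authors' deposited comparisons for controls and knockouts; no spread is given, and an open bar marks an adjusted p of 0.05 or more. The knockout bar is the shorter one for each member, and Mvk in knockouts, at 0.32, is open.

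Downstream of farnesyl diphosphate, the steps from squalene to cholesterol moved in the same direction. Of 13 listed enzymes, 8 fell with the tag term and 0 rose (all genes: 3.63% fell). The median was -0.67, and all 13 were negative. Msmo1, a sterol methyl oxidase, fell by 1.08 on the log2 scale, Fdft1, which joins farnesyl groups into squalene, by 0.88, and Tm7sf2, a sterol reductase, by 1.68. Lss, which closes the sterol ring, fell by 1.11 and Cyp51, the most abundant of the list, by 0.72. Nsdhl, Sqle and Sc5d also fell. On genotype alone 0 of the 13 passed, and the median was -0.94.

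The other uses of farnesyl diphosphate showed smaller differences. Of 15 listed genes of prenyl transfer, dolichol and ubiquinone synthesis, 2 fell with the tag term and 0 rose (all genes: 3.63% fell). The median was -0.12, with a range of -0.56 to 0.24. Those 2 were Chm, an escort protein of Rab prenylation (-0.56, SE 0.13, edgeR adjusted p = 0.0460), and Rce1, the protease that trims prenylated proteins (-0.53, SE 0.12, adjusted p = 0.0453). Rabggtb, the most abundant, had means of 181 CPM (controls) and 214 CPM (knockouts) and a log2 fold change of 0.16 that did not pass (adjusted p = 0.382). Ggps1, which extends farnesyl to geranylgeranyl diphosphate, had -0.07 (SE 0.13, adjusted p = 0.732). On genotype alone 0 of the 15 passed.

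Among 12 genes of sterol control, 3 fell and 0 rose with the tag term (all genes: 3.63% fell), with a median of -0.17. Stard4, a sterol carrier, fell by 0.80, Insig1 by 0.77 and Srebf1, which encodes SREBP-1, by 0.46. Npc2, a lysosomal sterol carrier with the highest mean of the list over the 6 libraries, had 0.05. On genotype alone 0 of the 12 passed.

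Sister enzymes that carry out like reactions elsewhere in the cell gave another pattern. Of 10 listed, 6 had enough counts to be tested. The thiolases Acat3 and Acaa1b and the isomerase Idi2 had group means of at most 0.406 CPM and were among those not tested. With the tag term 2 of the 6 fell and 0 rose (all genes: 3.63% fell), with a median of -0.20. Acaa2, a mitochondrial thiolase, fell by 0.38 (SE 0.09, edgeR adjusted p = 0.0443). Acat1, the mitochondrial counterpart of Acat2, had means of 121 CPM (controls) and 123 CPM (knockouts) and -0.18 with the tag term (SE 0.10, adjusted p = 0.277). Hadha, the most abundant, had -0.09 (SE 0.09, adjusted p = 0.513). All 6 passed as higher in tag B than in tag A, as did 2461 of the 15685 genes tested. This is the opposite direction from Hmgcs1, Idi1 and Acat2. On genotype alone 0 of the 6 passed.

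**Figure D5:**
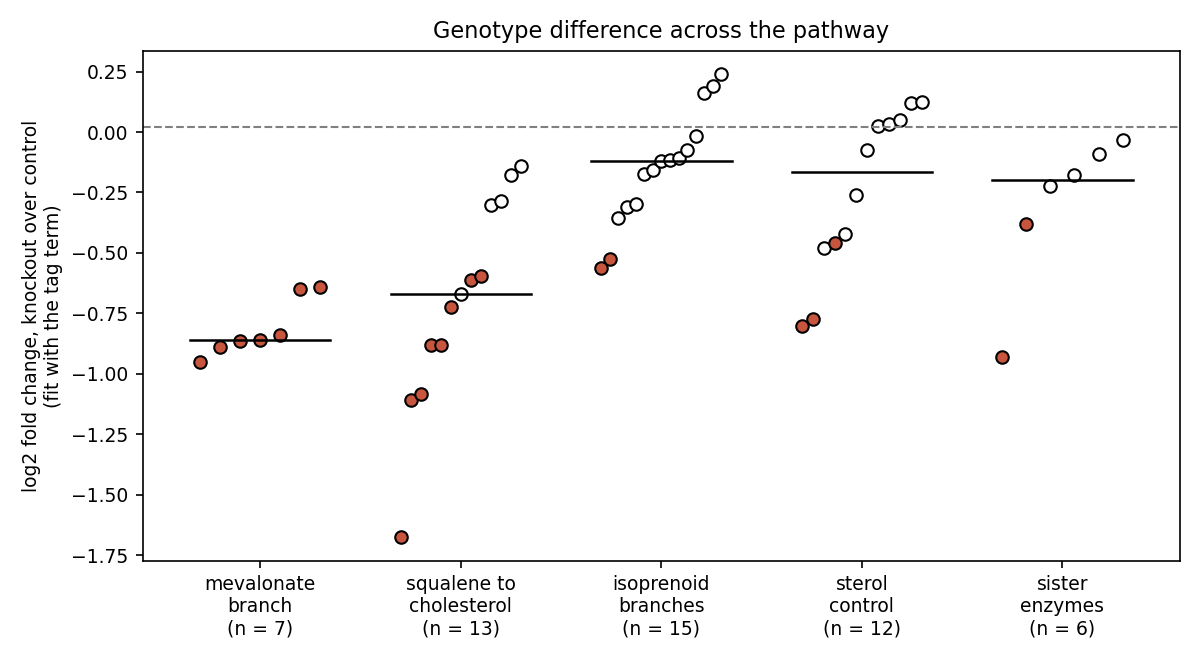
Log2 fold change of knockout over control with the tag term (vertical axis) for the members and 4 related gene lists; filled points passed an edgeR adjusted p of 0.05, solid lines are list medians and the dashed line is the median of all genes tested, 0.02. The members range from -0.95 to -0.64 and all are filled.

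Markers of other cells and of activation moved with genotype in part. The 5 B cell markers summed to between 3.24 and 4.87 CPM (controls) and between 4.14 and 19.5 CPM (knockouts), where knockouts 1 and 5 were high and knockout 4 was not. The sums of 4 NK cell markers were 4.81 to 7.62 and 9.61 to 15.3 CPM, of 4 macrophage and monocyte markers 3.65 to 7.38 and 5.07 to 19.1 CPM, and of 4 dendritic cell markers 1.15 to 1.504 and 1.91 to 7.07 CPM. With the tag term 1 B cell marker, Pax5, and 1 NK cell marker, Klrk1, rose in knockouts, by 2.68 and 1.01 on the log2 scale (edgeR adjusted p = 0.0453 each), and no other marker of these lists passed. The 2 CD8 markers summed to between 7.08 and 15.4 CPM (controls) and between 9.002 and 19.6 CPM (knockouts), of which most was Cd8b1. Cd8a was at 0.43, 0.36 and 0.86 CPM in controls 1, 2 and 4. In knockouts 1, 4 and 5 Cd8a was at 2.69, 0.81 and 2.07 CPM. With the tag term Cd8a had 1.73 on the log2 scale and did not pass (edgeR adjusted p = 0.0796). The 3 neutrophil markers summed to at most 0.575 CPM in any library. Of 3 erythroid markers, Hba-a1 and Hbb-bs were at 0 counts in all libraries. Knockout 4 lay within the control range in its sums of B cell markers (4.14 CPM) and of macrophage and monocyte markers (5.07 CPM). It lay above that range in its sums of NK cell markers (9.61 CPM) and dendritic cell markers (1.91 CPM). Most of its NK cell sum was Klrk1, at 9.24 CPM. Klrb1c, Ncr1 and Klra8 were at 0.203, 0.087 and 0.087 CPM in knockout 4, none above the control range. Most of its dendritic cell sum was Itgax, at 1.48 CPM. Knockout 4 had all 7 members below control 4, by 0.48 (Idi1) to 0.83 (Mvd) on the log2 scale. The 5 activation genes summed to between 3503 and 3951 CPM (controls) and between 3018 and 3445 CPM (knockouts), and 0 of the 5 passed with the tag term. Of the 5, only Mki67 had every knockout below every control, an order found in 8.68% of all genes tested. Mki67 stood at 1735 to 1809 CPM in controls and at 1215 to 1507 CPM in knockouts. Its log2 fold change with the tag term was -0.30 (edgeR adjusted p = 0.152). The part of other cells and of activation state in the members' differences was not tested.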

How the data were processed

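Raw counts of reads on each gene were deposited for the 6 libraries, per the file headers. The submitters' processing notes name GRCm38.p3 as the build and list the tools featureCounts, STAR, DESeq and DESeq2 without role, order or version. The libraries were strand-specific, per the labels' protocols. The authors also deposited a normalized signal, which is the count divided by 1 size factor per library for 19941 genes, and its means over the 3 activated libraries of a genotype, which were recomputed within 0.005. The authors' deposited log2 fold changes name the numerator first and were turned here to activated over unstimulated and knockout over control. Per the file headers the table also gives an adjusted p-value of each comparison, by a method the sources do not state. The 12 columns of single unstimulated libraries, and their means, were left aside. The deposited gene length in bases was used for levels per kilobase. A column that flags genes above background was not used, since only 7505 of its 19941 flagged genes have a normalized value.

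Tests used the raw counts of 6 libraries across all genes, without the 92 ERCC spike-in rows. Low genes were removed in edgeR 4.0.16 (filterByExpr, with a count of 10 and a total of 15 as minimum), and the rest scaled with TMM and fitted with glmQLFit; coefficients were tested two-sided with glmQLFTest and Benjamini-Hochberg adjustment over all genes tested, with a threshold of 0.05. The SE was taken as |log2 fold change|/√F. Within-tag differences are of log2(CPM + 0.5). R 4.3.3, limma 3.58.1 and DESeq2 1.42.0 were used, and the test was checked on simulated data. Coordinates are from GENCODE M21 (GRCm38), in which 53229 identifiers were found.

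The members, lists and alternatives were chosen with earlier results of these data known. Besides all members, the members of each list past the threshold were named, with at most 4 values, and the most abundant one. Some genes of these lists are not reported here by name. Srebf2, Mmab, Ggps1, Acat1, Acat3, Acaa1b and Idi2 were chosen after their values were seen. The genes most like the members have the highest Pearson r to the mean of the members' z-scored log2 CPM. Only protein-coding genes were eligible, and names of the Gm and Rik kinds, pseudogene names and like provisional symbols were left out.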

Additional observations from a re-analysis of the deposited data

How the results depend on the processing

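On genotype alone, the count of 0 genes and 0 members held with DESeq2 size factors, raw gene totals and limma-voom, and without each library in turn (0 to 0 genes and 0 to 0 members). It became 720 genes and 6 members without the low-count filter, 442 and 7 with the DESeq2 test, and 273 and 6 with ERCC scaling. The numbers 1 and 4 occur in both genotypes, and the replicate block gave 768 genes and 6 members. Deviations from the genotype means correlated at 0.584 for replicate 1 and 0.425 for replicate 4. For pairs that share a tag but no number, they correlated at 0.400 (control 2 with knockout 1) and 0.410 (control 4 with knockout 5).

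With the tag term, 1020 genes and 7 members became 2944 genes without the filter, 2361 with the DESeq2 test, and 393 genes and 1 member, Pmvk, with ERCC scaling. Leaving out each library gave 0 to 2056 genes and 0 to 7 members. ERCC scaling moved the median of all genes from 0.02 to -0.44 and that of the members to -1.32; ERCC counts were 0.569% to 1.05% of gene counts in controls and 1.02% to 1.37% in knockouts. With raw gene totals 6 members passed. The interaction count of 0 genes became 250 without the filter and 37 with the DESeq2 test. The counts between tags stayed within 1.5 times, with 3 members each. No member turned sign under any alternative run. Where a call was lost or gained, the cause was not tested. At least 227 reads lay behind every value of a member. For Hmgcs1, counting error at the lowest count was 1.45%, against a coefficient of variation of 26.9% among knockouts. For Mvd and Mvk it was 3.61% and 4.82%, against 3.08% and 4.97% among knockouts, so there counting error was not small beside the spread. That spread is measured poorly by 3 libraries a genotype.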
